A study of Bos grunniens with 3 samples.

Results

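*CD74* encodes the invariant chain, the protein that escorts newly made MHC class II molecules through the cell, blocks their peptide groove and is then degraded by cathepsins so that peptide can be loaded. A part of the protein reaches the cell surface, where together with CD44 or chemokine receptors it acts as the receptor of the cytokine MIF. Dendritic cells, macrophages and B cells carry much of it at all times, endothelial cells can carry it, and keratinocytes are known to gain it with MHC class II after interferon gamma. Keratinocytes of the basal layer, which rest on the basement membrane and carry keratins 5 and 14, are the renewing cells of the epidermis and of the outer wall of the follicle.

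*CD74* is 1 gene, with 1 row (ENSBGRG00000022423) among the 26924 gene rows of the white yak tables, and was taken by its symbol. It had been picked because of its level in these same libraries, so its levels are given as a description with no test. The study made 3 single-cell libraries from scapular skin of Tianzhu white yaks of about 2 years, 1 with the follicles in anagen (growth), 1 in catagen (regression) and 1 in telogen (rest), with dispase and trypsin digestion and follicles pulled from the skin. Site, age and digestion are those the labels give for each of the 3 libraries. The paper names 3 animals and describes the anagen and catagen collections only, and the labels tie no library to an animal, so stage, animal and library cannot be told apart. The protocol text of the catagen library names anagen, whereas its title and stage label say catagen. Each stage is 1 library without a replicate, hence no p-value is given, and every interval covers counting error only, at 95%.

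The kept cells numbered 11987 in anagen, 12062 in catagen and 14502 in telogen, with medians of 5256, 3350 and 5584 UMIs (unique molecular identifiers, 1 for each captured RNA molecule) per cell. Between 40 and 49 cell barcodes were shared by each pair of libraries. Levels are the UMIs of *CD74* summed over a group of cells, per 1000000 UMIs of that group (CPM). No sequence of the gene is shown, and its position in the genome was not used here.

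Taken over all cells, *CD74* was lowest in anagen and highest in catagen. It stood at 51.1 CPM in anagen (4235 UMIs, interval 49.6 to 52.7), 158 CPM in catagen (8138 UMIs, 154 to 161) and 88.6 CPM in telogen (9163 UMIs, 86.8 to 90.4). The catagen library was therefore 3.09-fold above anagen (log2 1.63, interval 1.57 to 1.68) and 1.78-fold above telogen (log2 0.83, 0.79 to 0.88), and telogen was 1.73-fold above anagen (log2 0.79, 0.74 to 0.85). Of all genes with at least 10 CPM in either library, 3.67% were at least 2-fold higher in catagen than in anagen, 2.65% were so in telogen over anagen and 10.3% in catagen over telogen. The median gene shifted by 0.05, -0.17 and 0.24 on the log2 scale in these 3 comparisons.

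In anagen and telogen a few cells carried a large part of the transcript. Cells with 20 or more *CD74* UMIs numbered 32 in anagen, 15 in catagen and 39 in telogen, and held 24.4%, 8.38% and 29.7% of all *CD74* UMIs of their library. The highest single cell had 58, 94 and 235 UMIs. These counts are raw, at median depths of 5256, 3350 and 5584 UMIs per cell, so a catagen cell reaches 20 less easily. They do not compare the libraries at equal depth. Once cells with endothelial or leukocyte transcripts (defined further on) were set aside, the rest of the library stood at 39.5, 144 and 63.1 CPM in anagen, catagen and telogen. The excess of catagen over anagen was 3.65-fold in these remaining cells, more than in the whole library.

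Basal keratinocyte-like cells were clusters that raised at least 3 of 11 basal markers such as *KRT5*, *KRT14*, *KRT15*, *COL17A1* and *DST*, unless another class ranked before. A cluster that met several classes took the one with the most markers among its 10 leading (most raised) genes. A bulge and outer sheath-like cluster with 9 basal markers raised was left out of the basal class in this way. Basal cells were counted without any cell that held a UMI of *PTPRC*, *LCP1* or *CD52*. *PTPRC* and *LCP1* are pan-leukocyte genes, and *CD52*, a lymphocyte surface gene, has a row with 0 UMIs in every library. The class raised 7 or 9 of its markers in each of its 5 clusters. *CD74* and the antigen presentation genes were kept out of the genes used for clustering, but cells were grouped with their correlates, so a class level is a description.

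In these basal cells *CD74* was at 97.1 CPM in anagen (1057 UMIs in 2072 cells, interval 91.3 to 103), at 381 CPM in catagen (4073 UMIs in 3256 cells, 369 to 393) and at 115 CPM in telogen (1674 UMIs in 2462 cells, 110 to 121). The catagen level was 3.93-fold above anagen (log2 1.97, interval 1.87 to 2.07) and 3.31-fold above telogen (log2 1.72, 1.64 to 1.81). Telogen and anagen were close, with a ratio of 1.19 (log2 0.25, 0.14 to 0.36). Basal cells held 25.0% of all *CD74* UMIs in anagen, 50.05% in catagen and 18.3% in telogen. The basal cells were the group with the most *CD74* UMIs in catagen. A basal gate set cell by cell gave lower levels, 69.9 CPM in anagen, 239 CPM in catagen and 95.5 CPM in telogen. It asked for UMIs of *COL17A1* and *DST* and for fewer UMIs of *KRT1* and *KRT10* than of *KRT5*, *KRT14* and *KRT15*. Of its cells, 38.5%, 45.7% and 38.1% lay in the basal clusters. A sum over a class cannot tell more cells with the transcript from more transcript per cell. The shares of cells given further on cannot either, since at low counts the share with a UMI also rises with the level per cell.

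Among genes with at least 10 CPM on either side, *CD74* ranked 16 of 5740 by its catagen over anagen ratio in basal cells, and 3.15% of those genes were at least 2-fold higher. It ranked 1436 of 5583 in telogen over anagen, where 2.79% were at least 2-fold higher and *CD74* was not. In catagen over telogen it ranked 121 of 5616, with 9.31% of genes at least 2-fold higher.

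The catagen level was the higher in each of the 3 basal clusters of the joint anagen and catagen clustering. The cluster led by *P3H2* and *MYLK* went from 118 CPM in anagen to 382 CPM in catagen (log2 ratio 1.69, 1.57 to 1.82). The cluster led by *CCL27*, a keratinocyte chemokine that attracts skin-homing T cells, and by *IL1R2*, a decoy receptor of interleukin 1, went from 69.3 to 355 CPM (log2 2.36, 2.18 to 2.54). The cluster led by *CD74* itself and *KRT15* went from 134 to 434 CPM (log2 1.70, 1.12 to 2.35), with 53 anagen and 907 catagen cells, whose median was only 1766 UMIs per cell in catagen. The *CCL27* clusters had *CCL27* and *IL1R2* among their 10 leading genes, and these belong to another marker list than the basal one, so values by cluster stand beside those of the class. In telogen neither the *CCL27* cluster nor the other basal cluster, led by *COL12A1*, had a gene of the basal list among its 10 leading genes. All class names were rebuilt from markers and may differ from those of the study.

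Within anagen the *CCL27* cluster was the lowest of the 3, with an interval (62.0 to 77.1) below that of the *P3H2* cluster (110 to 128). The same order was seen in telogen, which was clustered alone. There the basal cluster led by *COL12A1* and *ANGPTL2* had 141 CPM (134 to 148) and the one led by *CCL27* and *IL1R2* had 58.8 CPM (51.9 to 66.3). In catagen the *CCL27* cluster at 355 CPM (337 to 375) and the *P3H2* cluster at 382 CPM (366 to 400) had overlapping intervals. With the *CCL27* cluster left out of both libraries, the log2 ratio of telogen over anagen was 0.24 (0.11 to 0.38), next to 0.25 for the whole class. Left out of telogen alone, which compares unlike sets of cells, it was 0.54.

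The share of cells with at least 1 *CD74* UMI was likewise highest in catagen. At equal depth the anagen and telogen intervals overlapped, so these 2 shares are not ordered. With every cell reduced at random to 1500 UMIs, 10.8% of the anagen basal cells (9.46% to 12.2%), 34.8% of the catagen cells (33.0% to 36.6%) and 12.1% of the telogen cells (10.8% to 13.4%) had a *CD74* UMI. All 2072 anagen cells, 2766 of 3256 catagen cells and 2365 of 2462 telogen cells were deep enough for thinning. Without thinning the shares were 25.6%, 47.8% and 31.6%, at median depths of 4660, 3017 and 5759 UMIs. In inner root sheath-like cells, which make the hard sheath around the growing hair and served as the background, the thinned shares were 1.89%, 0.48% and 0.80% at median depths of 4434, 7487 and 11736 UMIs.

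Basal cells did not carry *CD74* evenly. No *CD74* UMI was found in 74.4% of them in anagen, 52.2% in catagen and 68.4% in telogen, where the same sums spread in proportion to depth would have left 61.6%, 34.6% and 53.2% at 0. Cells with 5 or more UMIs numbered 37, 213 and 74, which was 1.79%, 6.54% and 3.01% of the basal cells. The top 10% of basal cells by *CD74* held 68.6%, 47.9% and 61.1% of the UMIs of the class. The highest basal cell had 22, 20 and 26 UMIs in anagen, catagen and telogen. The counts of this paragraph are raw, at median depths of 4660, 3017 and 5759 UMIs per cell. They do not compare the highest level per cell between libraries.

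**Figure D1:**
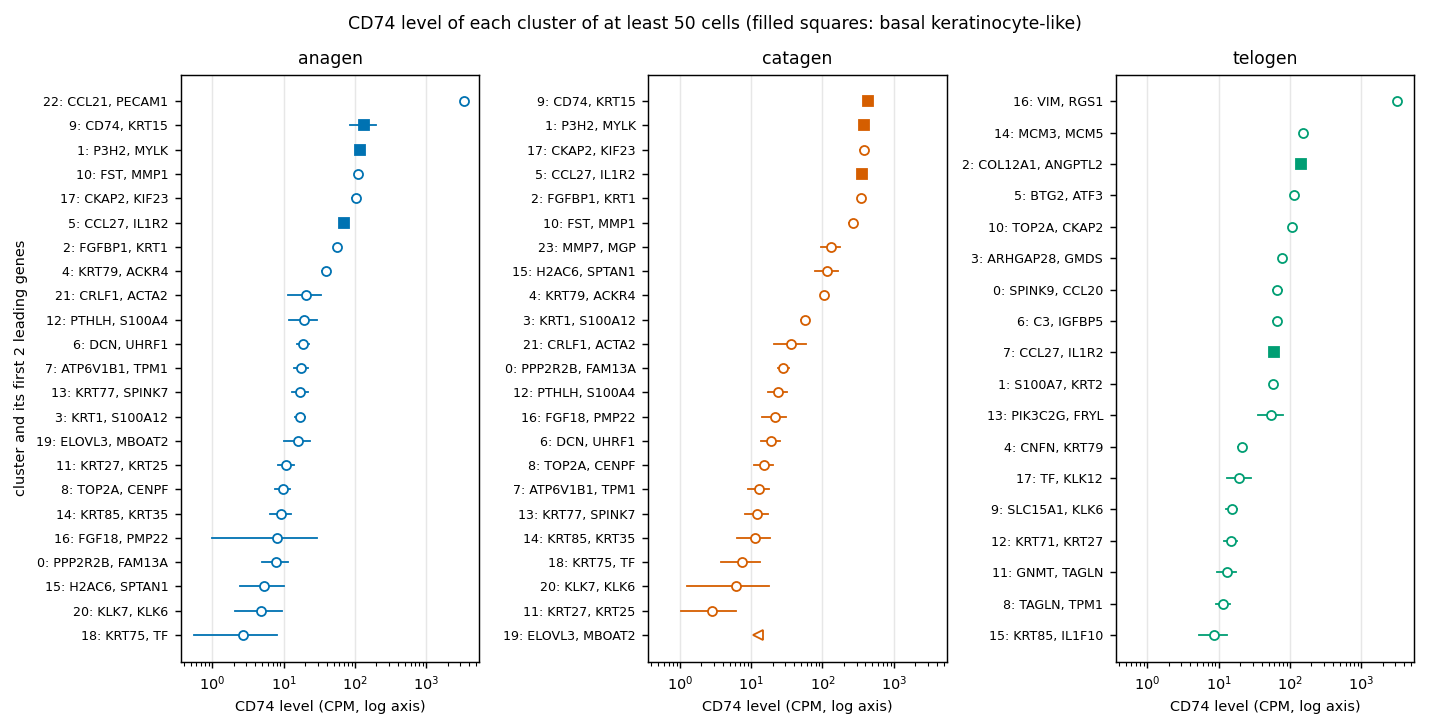
CD74 level of each cluster of at least 50 cells in the 3 libraries, in CPM of summed UMIs on a log axis, with lines for 95% Poisson intervals, filled squares for basal keratinocyte-like clusters and an open triangle at the upper bound of a cluster with 0 UMIs. In catagen the basal clusters sit between 355 and 434 CPM, above their 69.3 to 134 CPM in anagen; the catagen cluster led by CCL21 had 36 cells and is not drawn.

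Suprabasal-like cells had less *CD74* than the pooled basal class in each library, but in telogen not less than the *CCL27* basal cluster by the intervals. In catagen it went from 381 CPM in basal cells to 346 CPM in an unnamed cluster with *FGFBP1* and *KRT1*, to 56.6 CPM in the suprabasal-like cluster with *KRT1* and *S100A12*, and to 12.2 CPM in the suprabasal-like cluster with *KRT77* and *SPINK7*. *KRT1* and *KRT77* are keratins of cells that have left the basal layer. In anagen the same clusters stood at 56.5, 17.0 and 17.1 CPM below the 97.1 CPM of basal cells. The *FGFBP1* cluster, with 2 of the 11 basal markers raised, had the steepest ratio of these clusters, 6.12-fold higher in catagen (log2 2.61, 2.43 to 2.80), whereas the *KRT77* cluster had a log2 ratio of -0.48 with an interval that spans 0 (-1.15 to 0.16).

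The suprabasal-like class as a whole was at 17.0 CPM in anagen, 41.8 CPM in catagen and 56.9 CPM in telogen. In anagen 1 of its cells held 58 of its 229 UMIs. The upper follicle-like class, with *KRT79* and *KRT17* of the follicle mouth, was at 32.7, 95.9 and 18.5 CPM, so that it was 2.93-fold higher in catagen than in anagen and lower in telogen (log2 -0.82, -1.05 to -0.59). The telogen suprabasal-like level (53.3 to 60.7) overlapped that of the telogen *CCL27* basal cluster (51.9 to 66.3), and in catagen the *FGFBP1* cluster (328 to 364) overlapped the *CCL27* basal cluster (337 to 375). These differences run over clusters that do not match fully between the joint and the telogen clustering.

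The bulge and outer sheath-like, inner root sheath-like and hair cortex-like classes had less *CD74* than the pooled basal class in each library. Bulge and outer sheath-like cells, marked by *LHX2* and *SFRP1* of the follicle stem cell region, had 10.7 CPM in anagen, 27.1 CPM in catagen and 42.1 CPM in telogen. Inner root sheath-like cells had 10.9, 2.84 and 14.8 CPM, and hair cortex-like cells, which form the fibre, had 9.21, 11.2 and 8.60 CPM. In anagen, 24 of the 57 UMIs of the inner root sheath-like cells lay in 1 cell, and without it the level was 6.36 CPM. The 3 hair cortex-like levels had overlapping intervals. Basal cells were 9.04-fold above the bulge class in anagen, 14.1-fold in catagen and 2.74-fold in telogen, and among all genes the ratio of *CD74* ranked 10, 4 and 61, where 4.82%, 3.01% and 2.36% of genes were at least 2-fold higher in basal cells.

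Within the telogen bulge class the clusters differed. The one led by *C3* and *IGFBP5* had 65.7 CPM (58.1 to 74.0), above the cluster with *GNMT* and *TAGLN* at 13.2 CPM (9.58 to 17.7). Its interval overlapped that of the telogen *CCL27* basal cluster at 58.8 CPM (51.9 to 66.3), so it was not below each basal cluster. In anagen the bulge clusters had 7.73 and 19.3 CPM, and in catagen 28.4 and 23.8 CPM.

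Dividing cells were not all alike. A mitotic-like cluster that raised 5 basal markers, led by *CKAP2* and *KIF23*, had 104 CPM in anagen and 376 CPM in catagen, which is within the range of the basal clusters in both stages. The other mitotic-like cluster, led by *TOP2A* and *CENPF* and with 0 basal markers raised, had 9.67 CPM (7.46 to 12.3) and 15.1 CPM (10.9 to 20.4). In telogen, however, the mitotic-like cluster led by *TOP2A* had 106 CPM (99.1 to 113) with only 1 basal marker raised, so the level did not go with the number of basal markers in every library. The telogen S phase-like cluster with *MCM3* and *MCM5*, with 4 basal markers raised, had 152 CPM (137 to 168), next to the 141 CPM of the *COL12A1* basal cluster and not apart from it by the intervals.

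Clusters that held basal markers but missed the class are given for completeness. The bulge and outer sheath-like clusters with 9 and 5 basal markers raised made up 5.98% and 1.84% of anagen cells and 16.7% and 3.95% of catagen cells. The *CKAP2* cluster was 2.60% and 0.95% of the cells, and a contractile-like cluster with *ACTA2* was 0.75% and 0.70% of them, at 20.4 and 36.2 CPM of *CD74*. In telogen such clusters were 1.88%, 5.66% and 2.81% of the cells. Unnamed clusters held 24.5%, 23.3% and 39.7% of the cells of anagen, catagen and telogen, the last with 2544 cells of a median of 995 UMIs in 1 cluster, at 66.7 CPM of *CD74*.

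Leukocytes were rare in this material. Cells with at least 1 UMI of *PTPRC*, *LCP1* or *CD52*, called immune-gated here, numbered 42 in anagen, 30 in catagen and 80 in telogen. The smallest total of any kept cell was 2404 UMIs for the anagen library, against 500 for each of the others. Leukocytes below this anagen floor could therefore pass the gate in catagen and telogen only. The part of the floor in differences of number, kind or *CD74* between the gated cells of the libraries was not tested. Such a gate takes a range of cells and not a cell type. It also takes keratinocyte transcripts along: *KRT14* stood at 7078, 6392 and 21502 CPM in the gated cells against 21743, 21066 and 26366 CPM in basal cells, and the part of free RNA or doublets in this was not tested.

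The gated cells of the 3 libraries had very different *CD74*. In anagen they held 14 UMIs in all, or 55.5 CPM (30.4 to 93.1), in catagen 603 UMIs or 3233 CPM (2980 to 3502), and in telogen 1902 UMIs or 2626 CPM (2509 to 2746). The anagen gated cells were therefore below the pooled basal class of their own library, with a log2 ratio of -0.81 (-1.68 to -0.05) that rests on 14 UMIs. Against the per-cell basal gate it was -0.33, with an interval that spans 0 (-1.21 to 0.42). As the mean of each cell's CPM it was -0.32. The interval of the anagen gated cells overlapped that of the anagen *CCL27* basal cluster (62.0 to 77.1), so they were not below each basal cluster. The catagen gated cells were 8.49-fold above basal cells (log2 3.09, 2.96 to 3.21) and those of telogen 22.8-fold above them (log2 4.51, 4.41 to 4.61). Of all genes, 17.1%, 24.3% and 13.2% were at least 2-fold higher in gated than in basal cells in anagen, catagen and telogen, and *CD74* ranked 5437 of 6331, 371 of 6819 and 78 of 5846.

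A stricter gate gave larger ratios to basal cells in catagen and telogen. With at least 2 gate UMIs, 15 anagen, 11 catagen and 45 telogen cells remained, at 27.4, 8624 and 4231 CPM. Against basal cells this gave log2 ratios of -1.82 in anagen (-4.87 to 0.03), 4.50 in catagen (4.37 to 4.63) and 5.20 in telogen (5.10 to 5.29). In anagen the interval then reaches 0, with only 2 *CD74* UMIs in those 15 cells.

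*CD74* differed by the kind of leukocyte. Gated cells were sorted by the leukocyte list with the most UMIs, a rule set after values had been seen: T cell genes (such as *CD3D* and *IL7R*), mast cell genes (such as *CPA3* and *MS4A2*) or myeloid and dendritic genes (such as *CSF1R* and *FLT3*). The list needed at least 2 UMIs in the cell and no tie with another list. Cells with T cell genes numbered 9, 4 and 17 and held 1, 1 and 5 *CD74* UMIs in anagen, catagen and telogen. Cells with mast cell genes numbered 6, 0 and 10 and held 4 UMIs in anagen and 1 in telogen. Neither kind rose above the basal level by its interval in any library, but the intervals were wide. The catagen T cells stood at 135 CPM (3.41 to 749) and the anagen mast cells at 101 CPM (27.5 to 258). Both intervals span the basal level of their library, 381 and 97.1 CPM, so they cannot place these cells above or below it.

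Cells sorted by myeloid and dendritic genes, called myeloid and dendritic cells here, held most of the *CD74* of the gated cells in catagen and telogen. There were 0 of them in anagen, 11 in catagen with 552 UMIs and 18 in telogen with 1439 UMIs, at 8824 CPM (8103 to 9591) and 3904 CPM (3705 to 4111), out of 603 and 1902 UMIs in all gated cells. Gated cells without a clear kind held 50 UMIs in catagen and 457 in telogen. The myeloid and dendritic cells were 23.2-fold above the basal cells of catagen (21.1 to 25.3) and 33.9-fold above those of telogen (31.5 to 36.4). These folds rest on cell depth: with only the 10 catagen and 11 telogen cells of up to 20000 UMIs, they were 40.3-fold (36.8 to 44.1) and 202-fold (187 to 218). The levels were then 15350 CPM in catagen and 23261 CPM in telogen, so which library was the higher turned with the deep cells, and the part of doublets was not tested. These cells also held *KRT14*, at 8152 CPM in catagen and 21091 CPM in telogen. Their name follows from the sorting rule alone. Among all telogen gated cells, 1 of 2 measured myeloid genes and 0 of 1 measured dendritic gene were at least 2-fold above basal cells, beside 13.2% of all genes. In catagen 2 of 2 and 2 of 2 were, beside 24.3%. In anagen 0 of the 15 gated cells with a clear kind were myeloid or dendritic, which allows a share of up to 20% of them, and the other 27 gated cells could not be sorted. This limit covers only cells at or above the anagen floor of 2404 UMIs. The catagen myeloid and dendritic cell with the most *CD74*, 94 UMIs, lay just under it with a total of 2388.

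Single cells showed this without overlap in catagen. With at least 2 gate UMIs, the 8 catagen cells of the myeloid and dendritic kind had 11 to 94 *CD74* UMIs with a median of 58.5, and both T cells had 0. In telogen the 17 myeloid and dendritic cells ranged from 0 to 192 with a median of 84, and 16 of them had 11 or more, whereas the highest of 14 T cells had 3 and the highest of 9 mast cells had 1. In anagen the highest of 9 T cells and 4 mast cells had 1. Of these myeloid and dendritic cells, 1 of 8 in catagen and 6 of 17 in telogen had over 20000 UMIs. A further 4 cells without a clear kind, 1 in catagen and 3 in telogen, had 42 to 157 UMIs.

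**Figure D2:**
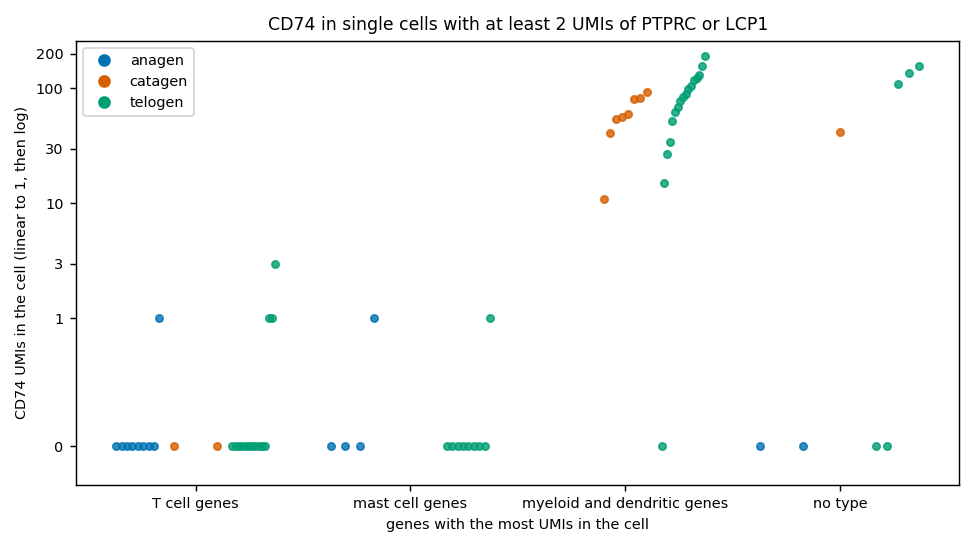
CD74 UMIs (vertical axis, linear up to 1 and then log) in each cell with at least 2 UMIs of PTPRC or LCP1, sorted by the leukocyte genes that the cell holds most of (horizontal axis), with 1 point for each cell and colours for the 3 libraries. Myeloid and dendritic cells reach 94 UMIs in catagen and 192 in telogen, and T and mast cells stay at 3 or less.

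Endothelial cells were the other high site. Cells with at least 5 UMIs of the vessel genes *PECAM1*, *CDH5*, *VWF*, *EMCN* and *CLDN5* and with no immune gate UMI, a rule also set after values had been seen, numbered 52, 13 and 30. They had 2973 CPM of *CD74* in anagen (2789 to 3166), 2905 CPM in catagen (2442 to 3430) and 2924 CPM in telogen (2724 to 3134). These cells held 23.0% of all *CD74* UMIs of anagen, 1.71% of catagen and 8.68% of telogen. They were 30.6-fold above basal cells in anagen, 7.62-fold in catagen and 25.4-fold in telogen, beside 20.2%, 37.4% and 22.1% of genes that were at least 2-fold higher there.

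The near equality of the 3 endothelial levels does not hold within kinds of vessel cell. In telogen 1 cell held 235 of the 795 UMIs, and without it the level was 2258 CPM (2075 to 2453). *ACKR1* is a marker of venular endothelium and *CCL21* of lymphatic endothelium. In anagen the 28 cells with more *ACKR1* than *CCL21* had 5081 CPM of *CD74* (4738 to 5442), with a median of 28.5 UMIs per cell, and the 15 cells with more *CCL21* had 240 CPM (164 to 338), with a median of 1 UMI. In telogen the corresponding levels were 2370 CPM (2152 to 2604) in 17 cells and 408 CPM (204 to 730) in 4 cells. In catagen the 5 *ACKR1* cells had 2936 CPM (2339 to 3640), and the single *CCL21* cell had no *CD74* UMI. In both libraries with more than 1 *CCL21* cell, the venular side was the higher. Among *ACKR1* cells the summed level was higher in anagen than in telogen, but the medians per cell were 28.5 and 24 *CD74* UMIs. The 28 anagen cells held 160396 UMIs in all and the 17 telogen cells 182704, at median depths of 4708 and 4833 UMIs. The part of deep telogen cells in the lower summed level was not tested. The other endothelial-gated cells had equal UMIs of both genes. These 9, 7 and 9 cells of anagen, catagen and telogen had 3779 CPM (3148 to 4500), 3314 CPM (2503 to 4303) and 5638 CPM (5064 to 6260). In telogen they were above the *ACKR1* cells and included the cell with 235 UMIs. In anagen they were below the *ACKR1* cells, and in catagen the intervals overlapped.

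The joint cluster that took in these cells, led by *CCL21*, *PECAM1* and *VIM*, had the highest *CD74* of all clusters in anagen (3364 CPM) and in catagen (2373 CPM). Cluster levels leave out immune-gated cells, and this cluster had 70 other cells and 13 immune-gated ones in anagen and 36 and 13 in catagen, so it mixed both kinds. The telogen cluster led by *VIM*, *RGS1* and *ACKR1*, named mesenchymal-like with 4 of 5 markers raised, was highest there. It had 3206 CPM in 58 cells, beside 40 immune-gated ones. Next in anagen and telogen came small unnamed clusters led by *MMP7*, a matrix metalloproteinase, and *MGP*, with 295 CPM (242 to 357) in 32 anagen cells and 219 CPM (177 to 269) in 43 telogen cells, and with 132 CPM (96.3 to 175) in 52 catagen cells. This cluster ran against the basal cells, since it was lower in catagen than in anagen (log2 -1.17, -1.70 to -0.66). The mesenchymal-like cluster of the joint clustering, led by *COL1A2* and *COL3A1*, had 51.4 CPM in 28 anagen cells and 0 UMIs in 4 catagen cells. A cluster led by *DCN* had 18.8 CPM in anagen and 19.1 CPM in catagen.

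**Figure D3:**
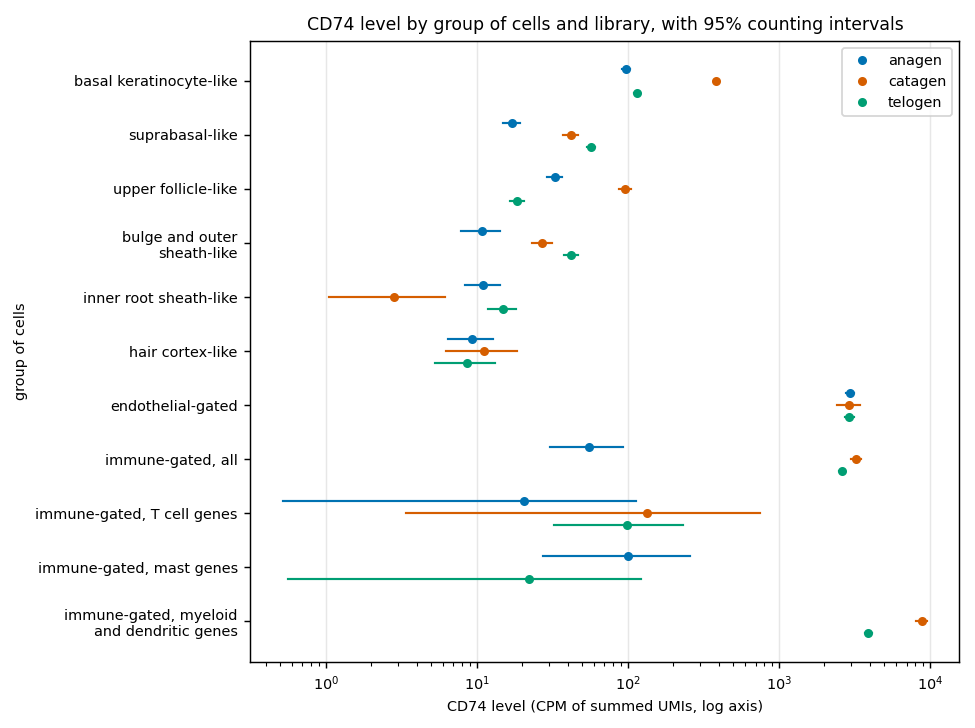
CD74 level of groups of cells in CPM of summed UMIs (log axis) with 95% Poisson intervals, for anagen, catagen and telogen. Endothelial-gated cells sit between 2905 and 2973 CPM, myeloid and dendritic cells at 8824 CPM in catagen and 3904 CPM in telogen, and basal cells at 97.1, 381 and 115 CPM. No anagen cell was sorted as myeloid or dendritic and no catagen cell as mast cell, and gated cells that could not be sorted are not drawn as a group of their own.

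The measured MHC class II genes were near 0 in the keratinocytes. Only 5 class II genes could be matched by symbol, *HLA-DRA*, the alpha chain of the DR molecule, *HLA-DMA* and *HLA-DMB*, which load peptide, and *HLA-DOA* and *HLA-DOB*, which restrain that loading. In basal cells *HLA-DRA* had 3 UMIs in anagen, 10 in catagen and 5 in telogen, and 0 of the 5 genes reached 10 CPM in any library. In the myeloid and dendritic cells it had 76 UMIs in catagen and 134 in telogen, and in endothelial-gated cells 23, 10 and 61 UMIs. *HLA-DMA* had 2, 19 and 7 UMIs in basal cells, or 0.18, 1.78 and 0.48 CPM.

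The ratio of *CD74* to *HLA-DRA* UMIs therefore differed by cell type. There were 352 *CD74* UMIs per *HLA-DRA* UMI in anagen basal cells (interval 120 to 1711), 407 in catagen (221 to 850) and 335 in telogen (143 to 1032). In myeloid and dendritic cells the ratio was 7.26 in catagen (5.71 to 9.36) and 10.7 in telogen (8.99 to 12.9). In endothelial-gated cells it was 42.3 (28.0 to 67.1), 13.9 (7.34 to 29.6) and 13.0 (10.0 to 17.2). No interval of the basal cells overlaps one of these leukocytes or of the vessel cells. *LCP1* was at 0 UMIs in basal cells by the gate. *CD53*, a leukocyte gene that the gate did not use, was at 0 UMIs in the basal cells of each library. It was picked after values were seen from a list of 15 such genes, of which 3 reached 10 CPM in basal cells of anagen or catagen.

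The lists of the pathway are described by counts among genes of at least 10 CPM in basal cells, where 3.15% of all genes were at least 2-fold higher and 7.11% at least 2-fold lower in catagen than in anagen. At that background, 0 or 1 called gene in lists this short is no result about them. Among the regulators of class II transcription, *CIITA*, the master switch, had 7, 21 and 8 UMIs in anagen, catagen and telogen. It stayed under 10 CPM, as did *HLA-DRA* and *HLA-DMA*, and all 3 had their most basal UMIs in catagen. Of the 4 regulators that reached it, 0 were at least 2-fold higher and 0 at least 2-fold lower in catagen than in anagen. Their median log2 ratio was 0.46 against -0.07 for all genes. *NFYB*, a subunit of the promoter-binding NF-Y complex, was highest among them with a log2 ratio of 0.88 (0.45 to 1.33).

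Of 6 measured genes that process the invariant chain and peptides, 0 passed 2-fold in either direction, with a median log2 ratio of 0.04. *CTSC*, a lysosomal protease, had 28.2 CPM in anagen and 46.3 CPM in catagen (log2 0.72, 0.51 to 0.93), and *IFI30*, the thiol reductase of the lysosome that interferon gamma induces, had 72.1 and 38.2 CPM (log2 -0.92, -1.09 to -0.74). *CST3*, an inhibitor of cathepsins, stood at 449 and 489 CPM. *CD44*, which signals with CD74 when MIF binds, was at 692, 671 and 619 CPM in anagen, catagen and telogen basal cells, and it was the only gene of the MIF receptor list that reached 10 CPM in them.

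Of 7 interferon gamma genes measured, 0 were at least 2-fold higher and 1 was at least 2-fold lower, with a median log2 ratio of -0.23. That gene was *IRF1*, a transcription factor that interferon gamma induces, with 141 CPM in anagen, 47.3 CPM in catagen (log2 -1.58, -1.72 to -1.43) and 62.0 CPM in telogen. *JAK1*, the kinase at the receptor, had 161 CPM in anagen, 248 CPM in catagen and 132 CPM in telogen. Of 8 class I genes, 0 were at least 2-fold higher and 1 was at least 2-fold lower in catagen, the immunoproteasome subunit *PSMB10* with 42.5 CPM in anagen and 18.2 CPM in catagen (log2 -1.22, -1.47 to -0.98). In telogen *PSMB10* had 83.3 CPM and its partner *PSMB8* had 50.6 CPM against 19.0 CPM in anagen, so both subunits were highest in telogen. *PSMB10* was lowest in catagen, where *CD74* was highest. *PSMB8* stood at 16.3 CPM in catagen, close to its anagen level, and these 2 levels are not ordered here.

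Of 3 measured leukocyte genes outside the gate, 0 passed 2-fold in either direction in catagen over anagen, with a median log2 ratio of 0.10. No gene of the T cell, B cell, mast cell or dendritic lists reached 10 CPM in the basal cells of either library. *CD14*, the only measured myeloid gene, passed through its anagen level alone, with 12.8 CPM in anagen and 2.06 CPM in catagen.

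**Figure D4:**
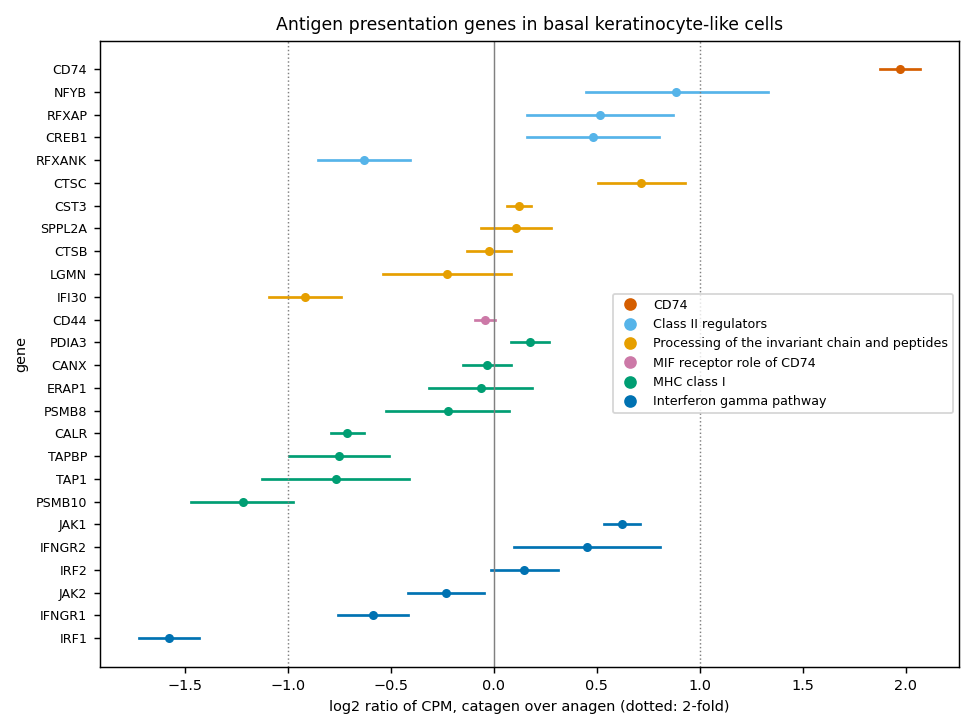
Log2 ratio of CPM in basal keratinocyte-like cells, catagen over anagen (horizontal axis), of CD74 and of genes of 5 antigen presentation lists with at least 10 CPM on either side, less 1 that is not reported (vertical axis), with 95% counting intervals and dotted lines at 2-fold. CD74 is at 1.97, to the right of every other gene drawn, of which IRF1 at -1.58 and PSMB10 at -1.22 lie beyond 2-fold to the left.

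In endothelial-gated cells *HLA-DRA* was at 70.3 CPM in anagen, 209 CPM in catagen and 224 CPM in telogen. These levels rest on 23, 10 and 61 UMIs in 14, 4 and 14 cells. *CD74* lay between 2905 and 2973 CPM there, over unlike mixes of vessel cells. Without its highest cell the telogen level of *CD74* was 2258 CPM. In all 3 libraries vessel cells had more *IRF1* than basal cells, with 474, 314 and 199 CPM.

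Genes whose pattern was most like that of *CD74* were sought over 64 clusters of at least 50 cells, by Pearson's r of log2(CPM + 10) over the 6277 named genes that reached 20 CPM in any cluster. The highest were *RRAS* (r = 0.85, Spearman's rho = 0.78) and *ZFPM2* (r = 0.84, rho = 0.75), followed by *DENND4A*, *REV3L*, *TPST2*, *CALCRL*, *ASAP1*, *ERAP1*, *MCTP1* and *LYSMD2* with r from 0.77 down to 0.72. *CALCRL* encodes a receptor of vessel and other cells, and *ERAP1* trims peptides for MHC class I. Without the 2 clusters of 1000 CPM or more, *NTRK2*, a neurotrophin receptor, came first (r = 0.84, rho = 0.81), before *RRAS*, *WNT16*, *ARHGAP6*, *RASA3*, *EEF2K*, *P3H2*, *SCUBE2*, *TNS4* and *GALNT3* (r from 0.79 down to 0.70). *RRAS* was the only gene in both sets of 10. The clusters share libraries, depth and markers, so these values describe likeness over clusters and carry no test.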

How the data were processed

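The deposited files hold UMI counts per gene and cell, which the authors made from 10x single cell 3' v2 libraries of white yak skin with Cell Ranger. The submitters' processing notes name version 2.1.1, and per the file headers the versions were 4.0.0 (anagen), 3.1.0 (catagen) and 6.0.2 (telogen). The genome build is not given in the sources used here. Cells with at least 200 genes were kept (13, 62 and 71 cells left out), with total counts of 82816430, 51537357 and 103430933 UMIs.

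Clusters were made in Seurat 5.3.0 (R 4.3.3) with 2000 variable genes less *CD74* and its lists, 30 principal components, 20 neighbours and resolution 0.8, with anagen and catagen integrated and telogen alone. A class needed at least 3 markers raised 1.5-fold (10 CPM added) and either no fewer detected markers raised than not or 2 of them among the 10 leading genes, a rule set after clusters had been seen. A cluster that met this for several classes took the class with the most markers among its 10 leading genes, then with the largest share of markers raised. Scrublet in scanpy 1.11.5 called 0 doublets in each library and so did not work; no doublets were removed, and the top 5% of scores were left out as an alternative. Levels carry exact Poisson intervals, shares exact Clopper-Pearson intervals and ratios exact binomial intervals (scipy 1.17.1, 95%, checked on simulated counts). The limit for a share of 0 was set at 3 counts. Cluster and class levels leave out immune-gated cells. Gene lists were counted as 2-fold with 1 CPM added, among genes with at least 10 CPM. The gene, the groups and the lists were chosen with earlier results of these data known. Named genes were *CD74*, the gate genes, up to 6 of each list by level, the 10 genes most like *CD74* and the leading genes of the highest clusters; leading genes of other clusters, *CIITA*, *CD53*, *HLA-DOA*, *HLA-DOB*, *KRT14* and *ACKR1* fall outside this rule and were named after their values were seen. For 1 gene of the lists, values are not reported here.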

Additional observations from a re-analysis of the deposited data

How the results depend on the processing

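Of 62 alternative values of the 7 main log2 ratios, 39 stayed within the counting interval, 23 moved outside it and 0 changed sign. For the whole library, catagen over anagen was 1.46 with at least 1000 genes per cell, 1.39 with median-of-ratios scaling, 1.51 as the mean of each cell's CPM and 1.87 without endothelial-gated and immune-gated cells, and telogen over anagen was 0.72, 0.99, 0.86 and 0.68 in the same order. In basal cells, catagen over anagen was 1.77 with a per-cell basal gate, and telogen over anagen was 0.40 with median-of-ratios scaling, 0.45 with the per-cell gate and 0.54 without the *CCL27* cluster of telogen alone, a comparison of unlike sets, whereas it was 0.24 without that cluster in both libraries. Immune-gated over basal was -1.82 in anagen with at least 2 gate UMIs. Inside the wide main interval, it was -0.33 there with the per-cell basal gate (-1.21 to 0.42) and -0.32 as the mean of each cell's CPM. In catagen it was 4.09 as the mean of each cell's CPM, 3.76 with the per-cell basal gate, 4.50 with at least 2 gate UMIs and 5.64 with at least 5. In telogen it was 4.34 with at least 1000 genes per cell, 5.52 as the mean of each cell's CPM, 4.22 without the *CCL27* cluster among the basal cells, 4.78 with the per-cell basal gate, and 5.20 and 5.59 with at least 2 and 5 gate UMIs. The cause of these shifts was not tested. The settings without the *CCL27* cluster, without gated cells and without the basal cluster of fewest UMIs per cell were chosen after seeing the data. The last of these gave 1.94 for catagen over anagen in basal cells. No paired analysis was possible because each stage is 1 library. The rare cells limit what these libraries can show, since the leukocyte levels rest on 30 to 80 gated cells.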
